A study of Rattus norvegicus with 192 samples.

Results

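The comparison described here is the response of the adult prefrontal cortex to complete Freund's adjuvant in rats whose mothers were pairfed, 16 days after the injection. Its members were taken from the sample titles: 9 arrays of pairfed adjuvant rats and 5 arrays of pairfed saline rats, 1 array per animal, which makes 14 of the 192 arrays in the series. The study put RNA from the hippocampus and prefrontal cortex of grown female rats of the Sprague Dawley strain, born to dams on 3 diets, on Illumina rat BeadChips. Adjuvant arthritis was used to set an inflammatory challenge in adulthood against the diet before birth. The pairfed dam received a liquid diet without ethanol, with maltose-dextrin in its place, and only as much as her ethanol-fed partner ate, from gestation day 1 to 21. The control dam ate chow freely, and the ethanol dam drank a liquid diet in which ethanol supplied 36% of the calories. Daughters were weaned at postnatal day 22 and were injected at 50 to 65 days of age, intradermally near the root of the tail, and received either saline or 0.1 ml of a 12 mg/ml adjuvant suspension. All 14 rats thus shared the restricted liquid diet in utero, and they differed in the injection. Which rats were littermates is not given in the sources, and the p-values take each rat as independent. For comparison the same contrast was taken in control rats and in ethanol rats at day 16 (9 adjuvant and 5 saline in each), in pairfed rats at day 39 (9 and 6), and in the hippocampus of the same 14 rats.

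Complete Freund's adjuvant is a suspension of killed mycobacteria in oil, and in the rat it gives an arthritis that develops over the following weeks. Inflammation in the body reaches the brain through circulating cytokines and through the endothelial cells of brain vessels, and it raises corticosterone. S100a8 encodes a subunit of calprotectin, a calcium-binding and metal-binding protein that fills the cytoplasm of neutrophils and is also made by activated monocytes. Lcn2 encodes lipocalin 2, an acute phase protein that keeps iron from bacteria by binding their siderophores, and in rodents astrocytes, endothelium and neutrophils can make it. In dissected cortex, more cells of a type and more RNA per cell cannot be told apart.

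Each of the 14 arrays detected 9070 to 10949 probes, and the number did not separate the groups (median 10297 in adjuvant and 9952 in saline, two-sided exact permutation p = 0.502). The excitatory neuron markers Slc17a7, Camk2a, Neurod6 and Nrgn were detected on 14 of 14 arrays, as the labelled tissue requires. The cortex array of saline animal 53 stood apart in identity. Over 27 probes that varied between rats alike in both tissues (correlation over 0.8 across the other 83 rats), its correlation with the hippocampus of animal 53 was 0.32. Its best match was the hippocampus of animal 64, an ethanol saline rat of day 16, at 0.73, and with the cortex array of animal 64 it reached 0.96. The other 13 pairfed rats of day 16 matched their own hippocampus best, at 0.81 to 0.94. They were among the rats used to choose the probes, which favours their own match, and animal 53 was not. Of 84 rats with both tissues 82 matched their own hippocampus best. The other exception was animal 109 of day 39, at 0.82 against 0.86 with animal 55. The hippocampus array of animal 53 matched the cortex of animal 49 best, at 0.62. Whether the array of animal 53 carries RNA of the other rat was not tested, and each result is given as labelled and, where a call, a sign or a list's count moves, or a value moves by more than 1.5 times, without it.

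In the cortex of pairfed rats, S100a8 and Lcn2 rose after adjuvant, and no probe fell. They were the 2 probes called out of 15250 tested (0.0131%), at an adjusted p below 0.05 with limma. The same 2 were called without animal 53. At an unadjusted p below 0.05 there were 721 probes (4.73%), 423 of them higher (2.77%) and 298 lower (1.95%), and 607 without animal 53 (3.98%). Of all probes 50.9% were higher in adjuvant rats and the median difference was 0.0051 on the log2 scale. The 95% interval of a typical probe reached 0.43 to either side of its estimate.

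S100a8 stood at log2 levels of 5.17, 4.96, 5.59, 4.57 and 5.41 in saline animals 47, 53, 65, 71 and 77. In the 9 adjuvant rats it ran from 6.05 to 8.38, with a median of 7.41. Every adjuvant rat lay above every saline rat, and the probe was detected in 9 of 9 adjuvant rats against 1 of 5 saline rats. The fitted difference was 2.20 ± 0.38 (log2, SE) with an adjusted p of 0.00263. Its size is relative to a saline group of which 4 arrays were not above background, and it was 1.03 with no background correction and with the authors' deposited values. Without animal 53 it was 2.20 with an adjusted p of 0.0186.

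Lcn2 stood at 4.81, 4.75, 4.77, 5.02 and 5.09 in the same 5 saline rats, none of which was detected above background. In adjuvant rats the level ran from 5.14 to 8.29 with a median of 7.15, and 7 of 9 arrays detected it. The groups did not overlap, but 2 adjuvant rats, animals 56 and 74, stood just above the saline rats at 5.14 and 5.21. The fitted difference was 2.00 ± 0.37 (log2, SE) with an adjusted p of 0.00662, and 2.02 with an adjusted p of 0.0308 without animal 53. Because no saline array was above background, the fold is a bound, which holds for this background correction: Lcn2 was at least 2.62-fold higher after adjuvant. With no background correction and with the authors' deposited values the difference was 0.94. Without adjuvant replicate 6 the difference was 1.78 and the adjusted p 0.0621, so 1 adjuvant rat decided whether Lcn2 passed the threshold.

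Of the 8 cortex chips, 5 carried 1 adjuvant and 1 saline array of this comparison each, which allows a difference within a chip. S100a8 was higher in the adjuvant array on 5 of 5 such chips, by 1.98 to 2.87, and so was Lcn2, by 0.40 to 3.48. Of all probes, 3.63% were higher on 5 of 5 chips and 3.59% were lower. The other 3 chips held 4 adjuvant arrays and no saline array of this diet and day. Chip was a fixed term in the fit.

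The sequence upstream of Lcn2 is shown because it is a called gene for which a promoter window was at hand. It is the 250 bases before the RefSeq start in GRCr8, chr3:36081781-36082030 on the minus strand, read 5′ to 3′, with motif matches in capitals.
Lcn2: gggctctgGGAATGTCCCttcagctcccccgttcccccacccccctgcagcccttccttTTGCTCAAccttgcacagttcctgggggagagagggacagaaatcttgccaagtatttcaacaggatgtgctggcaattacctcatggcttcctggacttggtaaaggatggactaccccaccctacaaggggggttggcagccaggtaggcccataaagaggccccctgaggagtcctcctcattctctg
The first run of capitals matches the NF-kappaB consensus on the opposite strand, 242 to 233 bases before the start. The second matches the C/EBP motif TTGCNNAA, 191 to 184 bases before it. Both strands were searched, the matches do not overlap, and 3.54% and 9.22% of 33469 RefSeq windows of 250 bases hold these motifs. The STAT motif TTCNNNGAA, held by 7.67% of windows, and the glucocorticoid half-site TGTTCT, held by 17.5%, have no match in these letters. A match is a string of letters and not a measured site.

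The probes that came next by p did not pass the test. Tmem252 differed by 1.37 ± 0.30 (log2, adjusted p = 0.0890) and was detected in 9 of 9 adjuvant rats against 1 of 5 saline rats. Its saline levels were 4.65, 4.89, 4.71, 5.78 and 5.24 (animals 47, 53, 65, 71 and 77), and its adjuvant levels 5.37 to 6.98 with a median of 6.54. The groups overlapped through saline animal 71, which was high, and adjuvant animal 74, which was low.

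Slc38a5, a glutamine transporter of the brain endothelium, had saline levels of 6.73, 6.99, 6.85, 7.54 and 6.76 and adjuvant levels of 7.87 to 8.53 with a median of 8.37. All adjuvant rats lay above all saline rats. The difference was 1.24 ± 0.28 (log2) with an adjusted p of 0.0977. Vwf, the endothelial and platelet glycoprotein that tethers platelets to injured vessels, stood at 8.44, 8.38, 8.57, 9.23 and 7.24 in saline rats and at 8.70 to 9.87, median 9.46, in adjuvant rats. The groups overlapped through animal 71, and the saline rat lowest in Vwf was animal 77. Its difference was 1.07 ± 0.24 (adjusted p = 0.0977).

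These calls turned on single arrays and on the processing. Without saline animal 71 Tmem252, Slc38a5 and Vwf passed as well, which made 5 called probes, with differences of 1.63, 1.44 and 1.25 (log2, limma, adjusted p = 0.0166, 0.0220 and 0.0220). Slc38a5 also passed with the authors' deposited values, at 0.78 (adjusted p = 0.0249), with no background correction, at 0.78 (adjusted p = 0.0245), and with only the groups of the comparison in the fit, at 1.48 (adjusted p = 0.0121). Tmem252 also passed without adjuvant replicate 2, animal 74, at 1.47 (adjusted p = 0.0298), with chip as a random block, at 1.40 (adjusted p = 0.0495), and with only the groups of the comparison, at 1.42 (adjusted p = 0.0253). With the authors' deposited values Tmem252 differed by 0.59 (adjusted p = 0.193).

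Ch25h, cholesterol 25-hydroxylase, makes an oxysterol that acts on immune cells and on viral entry. It was not detected in any saline rat, at 4.45, 5.04, 5.11, 5.46 and 4.86, and was detected in 9 of 9 adjuvant rats, at 5.47 to 6.65 with a median of 5.78. The groups met without overlapping, the highest saline rat at 5.46 and the lowest adjuvant rat at 5.47. The fitted difference was 1.00 ± 0.23 (adjusted p = 0.0977), and the bound against background was at least 1.40-fold.

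**Figure D1:**
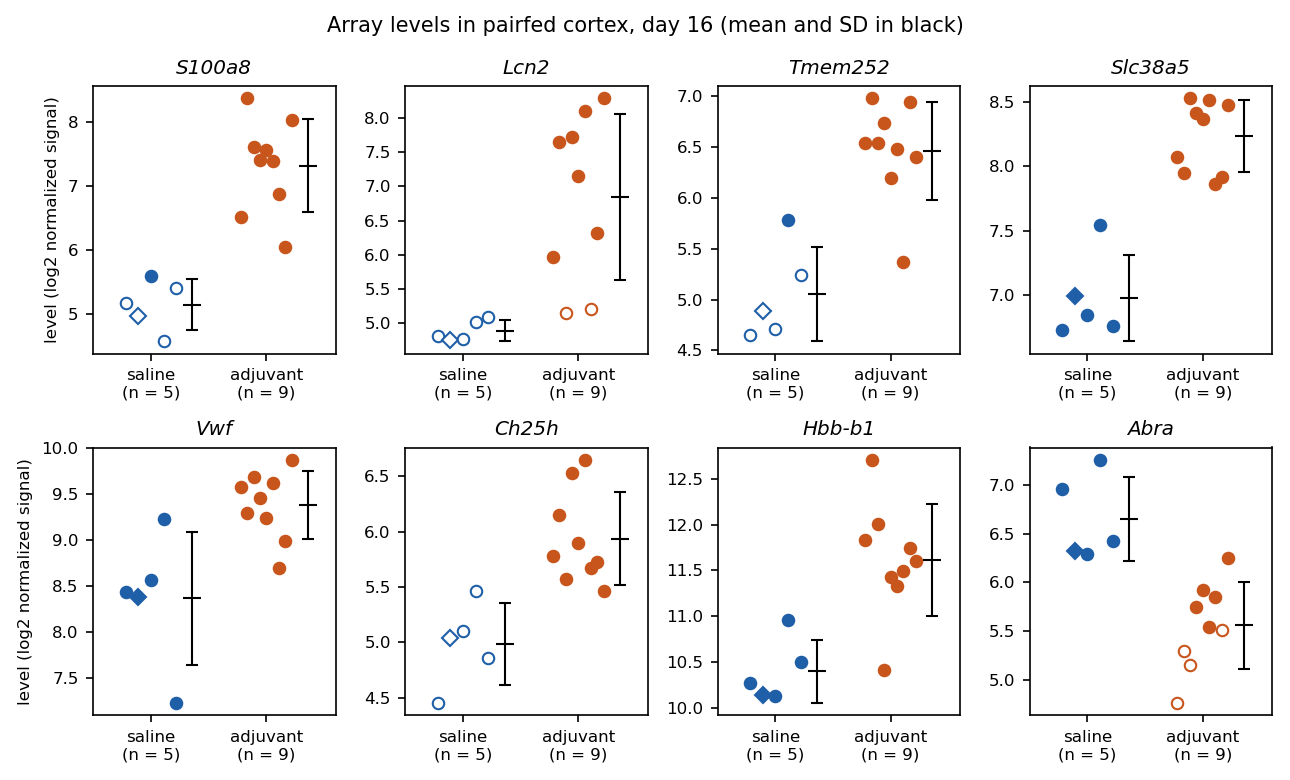
Levels (log2 normalized signal) of 8 genes on each of the 14 arrays, 5 saline (blue) and 9 adjuvant (orange), in order of animal number within a group. Hollow symbols are arrays on which the probe was not detected, the diamond is animal 53, and the black mark with its bar is the mean ± SD of the group. S100a8, Lcn2, Slc38a5 and Ch25h lie higher on all 9 adjuvant arrays than on any saline array, Abra lies lower on all 9, and 2 adjuvant rats have Lcn2 levels next to the saline rats.

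Among named probes higher in adjuvant rats, 12 were taken by smallest p, and the remaining 6 differed by 0.78 to 1.17 with adjusted p of 0.123 to 0.358. The beta globin Hbb-b1 differed by 1.17 ± 0.28, and it passed the adjusted threshold when adjuvant replicate 8 was left out. Plac8, a small cysteine-rich protein of leukocytes, differed by 1.17 ± 0.30, and its levels of 6.68 to 7.66 in adjuvant rats did not overlap those of 5.31 to 6.57 in saline rats. Mgp, matrix Gla protein, which keeps vessel walls from calcifying, differed by 0.92 ± 0.24. Tfpi, the inhibitor of the tissue factor pathway of clotting, differed by 0.78 ± 0.20, and Pyroxd2 by 0.99 ± 0.25. F11r, a tight junction adhesion molecule, differed by 0.90 ± 0.24 and by 0.60 without animal 53. These genes were picked for their p in this contrast, so their differences here are large by choice.

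On the falling side no probe passed, and the smallest adjusted p among the 12 named probes was 0.404. Abra, which encodes an actin-binding protein, was at 6.96, 6.32, 6.29, 7.26 and 6.42 in saline rats and at 4.76 to 6.25, median 5.55, in adjuvant rats. All adjuvant rats lay below all saline rats, and 5 of 9 adjuvant arrays detected it against 5 of 5 saline arrays. Its difference was −1.13 ± 0.31 (log2, adjusted p = 0.404). The others differed by −0.81 to −0.52. Among them were the ubiquitin ligase Hecw1 (−0.52 ± 0.15), the signalling scaffold Strn4 (−0.73 ± 0.22), the serotonin receptor Htr7 (−0.58 ± 0.19), the transcription factor Tcf4 (−0.59 ± 0.19), the G protein subunit Gnb1 (−0.66 ± 0.22) and the intermediate filament gene Nes (−0.61 ± 0.20), which was detected in 1 of 9 adjuvant and 4 of 5 saline rats. Strn4, Htr7 and the zinc finger gene Zfp3 (−0.81 ± 0.25) also lay lower in every adjuvant rat than in any saline rat.

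Groups that do not overlap were found for 25 probes (0.164%), 15 with adjuvant higher (0.0984%) and 10 with adjuvant lower (0.0656%). Without animal 53 there were 59 (0.387%). The arrays can be split into groups of these sizes in 2002 ways, and in 715 ways without animal 53. Fewer splits make full separation by chance more frequent, so the counts with and without that array cannot be compared directly.

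**Figure D2:**
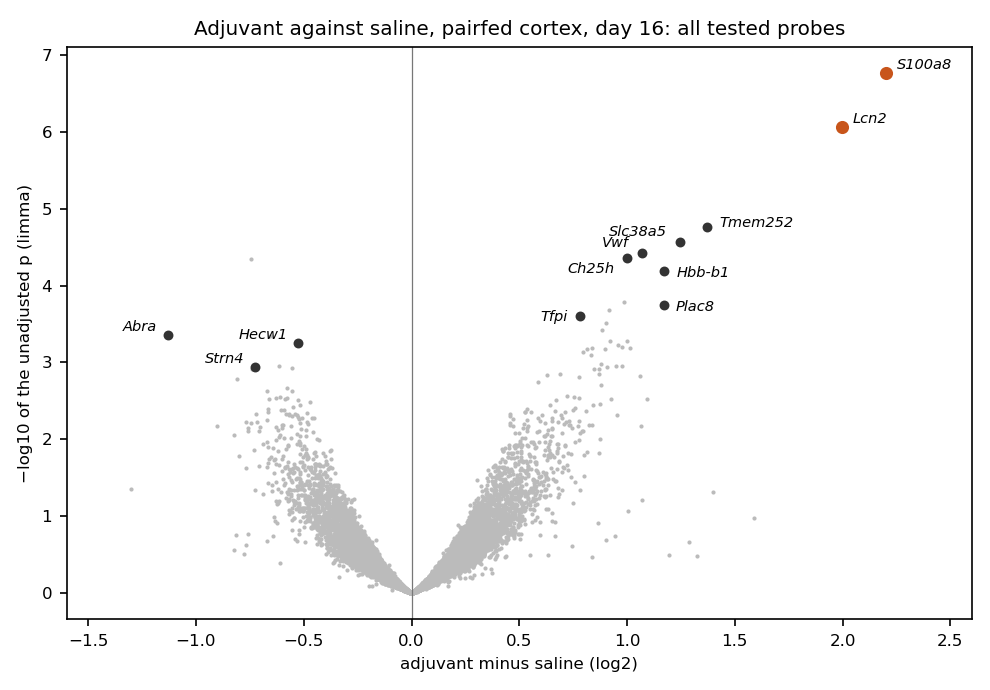
Each point is 1 of the 15250 tested probes, placed by its difference between adjuvant and saline (log2) and by the −log10 of its unadjusted p from limma. The 2 called genes, S100a8 and Lcn2, are orange and lie apart at differences of 2.20 and 2.00, and the labelled black points did not pass the adjusted threshold.

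The 18 genes that an earlier analysis of all 42 cortex arrays of day 16 had called, these 14 arrays among them, were all higher here, by 0.43 to 2.20 with a median of 0.90. Because those calls used the same arrays, the list is no independent evidence of the direction, and 2 of its members, S100a8 and Lcn2, passed the test in pairfed rats alone. Upp1, uridine phosphorylase, differed by 0.80 ± 0.23 and Gpd1, the cytosolic glycerol-3-phosphate dehydrogenase, by 0.88 ± 0.28. Nfkbia, the inhibitor that NF-kappaB itself induces, differed by 0.58 ± 0.23. Lrg1, an acute phase glycoprotein, was detected in 7 of 9 adjuvant rats and no saline rat, which gives a bound of at least 1.21-fold. Zswim7, with a role in DNA recombination, differed by 0.92 ± 0.26, and its groups did not overlap. Acer2, a ceramidase of the Golgi, differed by 0.88 ± 0.33. Sgk1, a kinase that corticosteroids induce, differed by 0.43 ± 0.20. Ccn2, Zfp189 and Sult1a1 differed by 0.65, 0.71 and 0.61 as labelled and by 0.38, 0.42 and 0.34 without animal 53, on whose array each was the lowest of the 14.

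The neutrophil list held S100a8 alone among called genes. Of its 18 members 8 were tested, and the other 7, Mpo and Camp among them, had differences of −0.07 to 0.25, and of 0.00 to 0.18 without animal 53. With S100a8 counted, 5 of the 8 were higher (median 0.11), and 8 without animal 53 (median 0.05). Csf3r, Camp and Mpo were not above background on any saline array. S100a9, which encodes the partner of S100a8 in calprotectin, was not detected on enough arrays to be tested, and neither were Ngp, Elane, Mmp8, Cxcr2 and Ltf. The mean level over the 8 tested markers, S100a8 included, was 5.23 to 5.74 in adjuvant rats and 4.97 to 5.25 in saline rats. That mean carries the S100a8 difference itself and is no separate measure of the other 7. The part of neutrophils in the S100a8 result was not tested beyond these values.

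Among 32 genes of the acute phase and cytokines, 19 were tested, 15 were higher and 5 reached an unadjusted p below 0.05, all higher (2.77% of all probes did), with a median of 0.20. Without animal 53, 14 were higher and the median was 0.12. Lcn2 was the called one. Cp, ceruloplasmin, the ferroxidase of the acute phase, differed by 0.87 ± 0.26. Il6r, the receptor of interleukin 6, was detected in 7 of 9 adjuvant rats and no saline rat, which gives a bound of at least 1.18-fold. The list of 28 genes that glucocorticoids induce also holds Lcn2, and of its 20 tested members 15 were higher, 7 of them at p below 0.05 and 3 without animal 53 (median 0.17). The metallothionein Mt1 differed by 0.95 ± 0.28, and Klf15, a transcription factor of the glucocorticoid response, by 0.65 ± 0.23 (0.40 without animal 53). Of 9 tested corticosteroid receptor and CRH genes 3 were higher, with a median of −0.09, and none reached p below 0.05. Without animal 53 the direction turned, with 5 higher and a median of 0.04.

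Genes of the vessel wall were more often higher than lower, and none was called. The lists were written with earlier results of these data known, and 50.9% of all probes were higher. Of 27 tested endothelial genes 21 were higher (median 0.23, and 20 without animal 53), and Slc38a5, Vwf and Vcam1 reached an unadjusted p below 0.05. Vcam1, which lets leukocytes adhere, differed by 0.52 as labelled and by 0.24 without animal 53. Of 14 mural and matrix genes 9 were higher (median 0.06), with Tagln, an actin-binding protein of smooth muscle, at 1.06 ± 0.38. Meningeal genes were higher in 9 of 16 and choroid plexus genes in 4 of 8. The mean level over the endothelial list was 7.12 to 7.49 in adjuvant rats and 6.89 to 7.22 in saline rats.

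The lists of immune genes of the tissue held no called member. Complement genes were higher in 11 of 12 (median 0.30, and 10 without animal 53), of which C4b differed by 1.00 ± 0.28 and by 0.66 without animal 53, whose array was the lowest in C4b. Of 24 interferon response genes 17 were higher, 3 of them at p below 0.05, and 1 was lower at that p (median 0.16). Without animal 53, 14 were higher, 2 at p below 0.05, 2 were lower at that p, and the median was 0.05. Ifitm3, which blocks viral fusion, differed by 0.96 ± 0.27, and Ifit1, an RNA-binding interferon effector, by −0.67 ± 0.26. Ifit1 was detected on only some arrays of each group and stood highest in saline animal 71, at 7.13. MHC class I genes were higher in 14 of 21, among them the proteasome subunit Psmb9 (0.68 ± 0.26) and B2m (0.41 ± 0.18), the light chain of class I, and class II genes in 7 of 8 (median 0.19). The class I median was 0.07, and 0.23 without animal 53, when 15 were higher. Lymphocyte and monocyte genes were higher in 7 of 13, with the chemokine Ccl5 at 0.70 ± 0.34. Gzmb, a granule protease, was detected in 1 of 5 saline rats and no adjuvant rat, and no size is given for it. Microglial genes were higher in 19 of 23 (median 0.16, and 20 without animal 53), with the Fc receptor chain Fcer1g at 0.59 ± 0.21. Siglec5, a sialic acid-binding lectin, was detected in 4 of 9 adjuvant rats and no saline rat, too near background for a bound on its fold.

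For the other cells of the cortex, 13 of 17 astrocyte genes and 18 of 24 oligodendrocyte genes were higher (medians 0.12 and 0.20), against 4 of 11 excitatory neuron genes (median −0.14) and 3 of 18 inhibitory neuron genes (median −0.10). Without animal 53, 11 of the astrocyte genes (median 0.07), 17 of the oligodendrocyte genes, 5 of the excitatory genes and 6 of the inhibitory genes were higher. The neuropeptide Cort, made by cortical interneurons, differed by −0.49 ± 0.23, the myelin protein Mal by 0.55 ± 0.22 and the oligodendrocyte lineage factor Olig2 by −0.44 ± 0.21. Olig2 was not above background on most arrays of either group. Markers of striatum and thalamus, which are not part of the labelled tissue, were higher in 6 of 13 and 3 of 10 (6 and 4 without animal 53).

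Of 23 tested genes of endoplasmic reticulum stress 15 were higher (17 without animal 53), with the chaperone partners Dnajc3 at 0.59 ± 0.18 and Dnajb11 at −0.41 ± 0.20 and Sdf2l1 at 0.65 ± 0.24. Heat shock genes were higher in 12 of 17, clock genes in 8 of 14 and immediate early genes in 15 of 28, of which 2 reached p below 0.05. Without animal 53 these counts were 10, 7 and 21, with no immediate early gene at p below 0.05, and the heat shock median went from 0.09 to 0.02. Per3, a clock gene, was detected in 5 of 9 adjuvant rats and no saline rat, which gives a bound of at least 1.03-fold. The inducible kinase Sik1 differed by 0.56 ± 0.26. Hypoxia and fasting genes were higher in 15 of 17 (median 0.21), Upp1, Gpd1 and the lipase inhibitor Angptl4 (0.58, and 0.34 without animal 53) among them. Ribosomal protein genes were higher in 42 of 59 and respiratory chain genes in 39 of 68 (medians 0.11 and 0.05), and in 40 and 36 without animal 53. Over all these lists, S100a8 and Lcn2 were the called members.

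**Figure D3:**
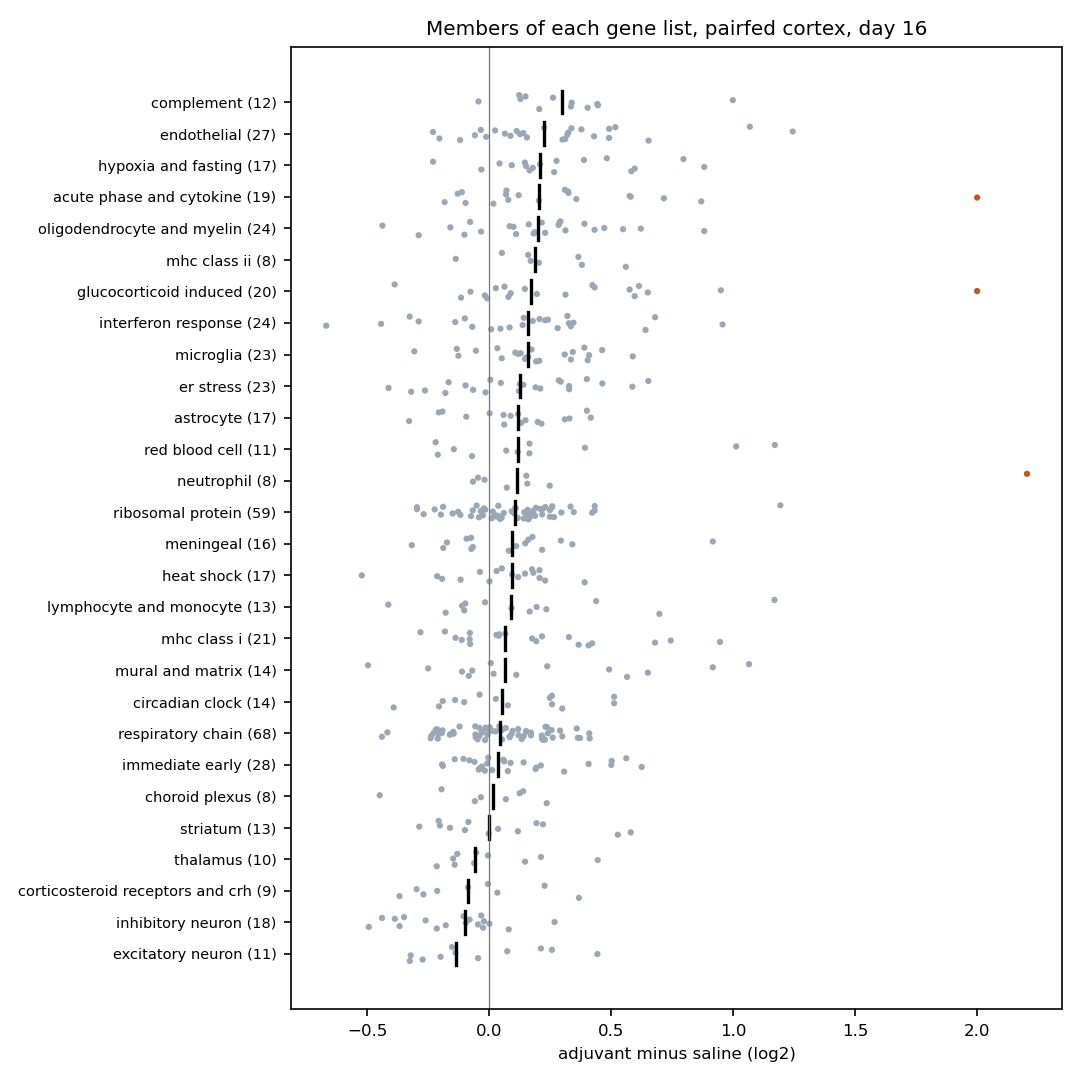
Each point is a tested gene of a list, placed by its difference between adjuvant and saline (log2), and the black bar is the median of the list, with the number tested in brackets. The 2 called genes are orange, and Lcn2 is a member of 2 of the lists. List medians run from −0.14 for excitatory neuron genes to 0.30 for complement genes.

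The mean hemoglobin level was higher in the cortex of adjuvant rats, though not on every chip. The mean level of 5 hemoglobin probes was 9.32, 9.50, 9.20, 9.89 and 9.69 in saline animals 47, 53, 65, 71 and 77. In adjuvant rats it was 9.42 to 10.93 with a median of 10.12. The groups overlapped, and the difference was 0.55 (two-sided exact permutation p = 0.0310, and 0.0573 without animal 53). Within the 5 shared chips it was higher in the adjuvant array on 3, with differences of −0.28 to 0.76. The 4 adjuvant arrays on chips with no saline array held the highest levels, 10.20 to 10.93. The permutation test had no chip term, so injection and chip cannot be told apart in the difference of 0.55. Hbb, a beta globin, differed by 1.01 ± 0.29, and the alpha globins Hba-a1 and Hba-a2 by 0.07 ± 0.25 and −0.15 ± 0.22. The alpha globin Hba-a3 is also part of the mean, and its difference is not given here, so those values do not stand for all alpha globins. In all, 7 of 11 tested red blood cell genes were higher (8 without animal 53). With the hemoglobin level of each array as a covariate, S100a8 differed by 2.25 ± 0.40 and Lcn2 by 2.01 ± 0.39, and both stayed called (limma, adjusted p = 0.00498 and 0.0166).

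The diet groups of day 16 shared no rats by their labels, so the same contrast was set beside the pairfed one. Control rats had 5 called probes (0.0328%), ethanol rats 0 (389 at an unadjusted p below 0.05, 2.55%) and pairfed rats at day 39 had 1, which was lower (0.00656%). S100a8 differed by 1.96 ± 0.38 in control rats (adjusted p = 0.0173), 0.91 ± 0.38 in ethanol rats and 0.48 ± 0.36 in pairfed rats at day 39. Lcn2 differed by 0.85 ± 0.37, 0.93 ± 0.37 and 0.22 ± 0.35. Neither gene's difference between pairfed and the other diets passed the test across all probes: for S100a8 the pairfed response exceeded the control response by 0.24 ± 0.55 and the ethanol response by 1.29 ± 0.55, and for Lcn2 by 1.15 ± 0.53 and 1.07 ± 0.53.

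No probe passed the test of a different adjuvant response between pairfed and control rats with limma (900 at an unadjusted p below 0.05, 5.9%, and a smallest adjusted p of 0.283). None passed between pairfed and ethanol rats either (472, 3.1%), and none in either test without animal 53. The smallest p between pairfed and control belonged to Acly, ATP citrate lyase, which makes acetyl-CoA for lipid synthesis. It differed after adjuvant by −0.51 ± 0.19 in pairfed and 0.69 ± 0.19 in control rats, a gap of −1.21 ± 0.26. Per1, a clock gene that glucocorticoids also induce, was called in control rats at 1.12 ± 0.21 and stood at 0.03 ± 0.21 in pairfed rats, a gap of −1.09 ± 0.30. Pyroxd2 differed by 0.99 in pairfed and −0.50 in control rats, and Fhl3, a LIM domain protein, by −0.27 and 1.21. Against ethanol rats the smallest p values belonged to Eml2, a microtubule-associated protein, and Tcf4, with gaps of −0.97 ± 0.24 and −0.99 ± 0.27. The potassium channel gene Kcnj16 had a gap of 0.97 ± 0.27, and it was detected on only some arrays of each pairfed group.

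Between day 16 and day 39 no probe passed (714 at an unadjusted p below 0.05, 4.68%, and a smallest adjusted p of 0.416). The S100a8 difference was larger at day 16 by 1.72 ± 0.53 and that of Lcn2 by 1.77 ± 0.51, neither past the threshold across all probes. By the smallest p, Tvp23a and Cfp, which encodes the complement protein properdin, led this list with gaps of 1.29 ± 0.30 and 1.50 ± 0.41, and at day 39 they differed by −1.04, the 1 call of that day, and −0.58.

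The 12 rising probes named above were higher in 10 of 12 cases in control rats, 10 in ethanol rats and 9 in pairfed rats at day 39, where 51.4%, 48.9% and 50.5% of all probes were higher. Their medians were 0.79, 0.36 and 0.16, against 1.12 in the contrast that chose them. The 12 falling probes were lower in 7, 8 and 4 cases, with medians of −0.04, −0.08 and 0.05. Of all probes 48.6%, 51.1% and 49.5% were lower. In ethanol rats 2 of the 12 were higher at an unadjusted p below 0.05 (limma), and 0 were lower at that p. If the array of animal 53 carries RNA of animal 64, the pairfed and ethanol saline groups share that rat.

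**Figure D4:**
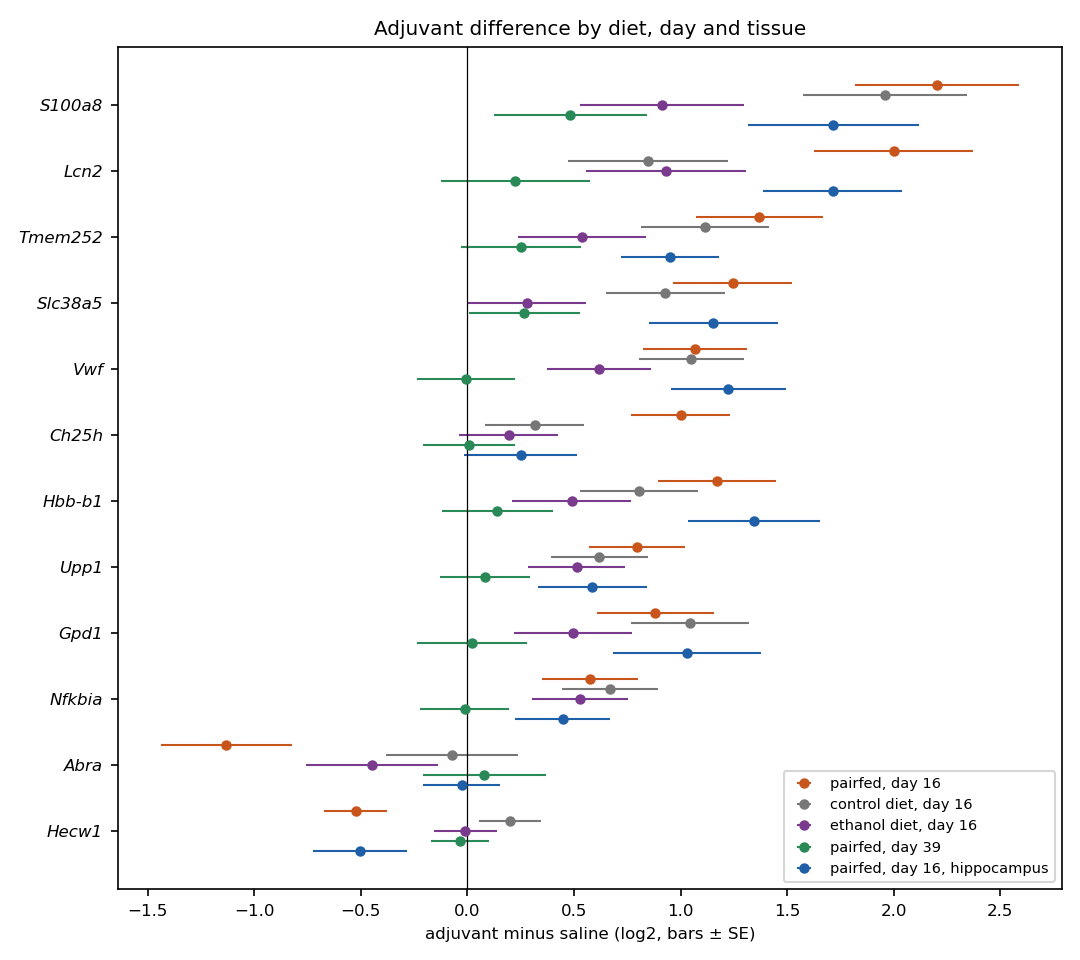
The difference between adjuvant and saline (log2, bars ± SE) of 12 genes in pairfed cortex at day 16 and in 4 other contrasts, of which hippocampus is from the same rats. S100a8 stands at 2.20 in pairfed and 1.96 in control rats at day 16 and at 0.48 in pairfed rats at day 39, and Abra lies within 1 SE of 0 in control rats, in pairfed rats at day 39 and in the hippocampus.

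In the hippocampus of the same 14 rats, 2 of 15320 probes were called (0.0131%), both higher, and Lcn2 was one, at 1.71 ± 0.33 (adjusted p = 0.0196). The other was Acer2, at 1.37 (adjusted p = 0.0415). S100a8 differed there by 1.72 ± 0.40 (adjusted p = 0.172), Vwf by 1.22, Slc38a5 by 1.15 and Tmem252 by 0.95. Ch25h, Tfpi and Abra differed by 0.25, 0.07 and −0.03 in the hippocampus. The 12 rising probes were higher there in 12 of 12 cases, where 47.8% of all probes were higher. The 12 falling probes were lower in 7, where 52.2% were lower. The rats are those that chose the probes, so these counts are not independent of that choice. No probe passed a test of the difference between the tissues in a joint limma fit with rat as a random block (524 at an unadjusted p below 0.05, 3.63%, of 14441 probes).

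Among the 9 adjuvant rats, those with more Lcn2 in the cortex also had more in the hippocampus. The levels ran from 5.14 to 8.29 in the cortex and from 4.83 to 7.94 in the hippocampus, and animal 74 was low in both, at 5.21 and 4.83. Pearson's r was 0.86 (exact permutation p = 0.00288, adjusted p = 0.0231 over 8 relations), and 0.92 without the 2 rats farthest from the median in the cortex. Spearman's coefficient was 0.78 (exact permutation p = 0.0172, adjusted p = 0.102). A chip held too few of these rats for a value within chips. For S100a8 cortex and hippocampus gave r = 0.51 (exact permutation p = 0.157) and Spearman's coefficient = 0.45 (exact p = 0.230), and 0.16 without the 2 farthest rats. S100a8 and Lcn2 in the cortex gave r = 0.53 (exact p = 0.147) and Spearman's coefficient = 0.35 (exact p = 0.359), and r = 0.55 without the 2 farthest rats. The hemoglobin level gave r = 0.02 with S100a8 (exact p = 0.967) and r = −0.37 with Lcn2 (exact p = 0.332), with Spearman coefficients of −0.12 (exact p = 0.776) and −0.53 (exact p = 0.148). Without the 2 farthest rats these r were −0.59 and −0.44. S100a8 gave r = 0.45 with Slc38a5 (exact p = 0.224; Spearman's coefficient = 0.43, exact p = 0.250) and r = 0.46 with Vwf (exact p = 0.209; Spearman's coefficient = 0.45, exact p = 0.230). Without the 2 farthest rats they were 0.79 and 0.49, so the relation of S100a8 to Slc38a5 and to the hemoglobin level moved with those rats. The hemoglobin levels of cortex and hippocampus gave r = 0.72 (exact p = 0.0282, adjusted p = 0.113) and Spearman's coefficient = 0.75 (exact p = 0.0255, adjusted p = 0.102), and r = 0.80 without the 2 farthest rats. Apart from Pearson's r for Lcn2 between the tissues, none of the 8 relations passed after adjustment.

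**Figure D5:**
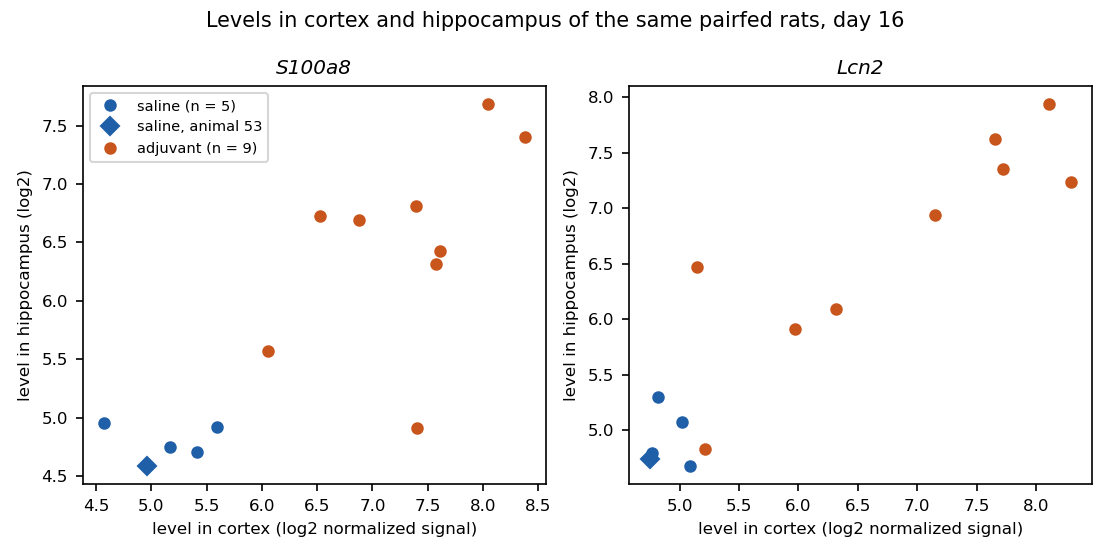
Levels (log2 normalized signal) of S100a8 and Lcn2 in the cortex and the hippocampus of each of the 14 rats, 5 saline (blue, animal 53 as a diamond) and 9 adjuvant (orange). Lcn2 levels of the adjuvant rats spread along a diagonal (r = 0.86), from animal 74 next to the saline rats up to 8.29 in the cortex and 7.94 in the hippocampus.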

How the data were processed

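Gene expression was measured in 14 cortex arrays, 1 per rat. Per the file headers, the authors' non-normalized table pairs each probe's signal with a detection p-value. The values of the deposited signal lie in the range of log2 intensities and were taken as such. The scanner software and earlier steps are not given in the sources. The authors' deposited value table, also log2, was an alternative. Background was corrected with normexp from the detection p-values, an offset of 16 was added, and quantile normalization ran over all 192 arrays (neqc, limma 3.58.1, R 4.3.3, statmod 1.5.0). The offset shrinks the folds of dim probes. A probe was tested if its detection p-value was below 0.05 on at least 5 cortex arrays. Limma fitted 87 cortex arrays in 12 groups with chip as a fixed block, and Benjamini-Hochberg adjustment ran over 15250 probes. The joint fit of both tissues held 171 arrays.

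Of 22502 probes, the platform annotation gave 1 symbol to 13787, several to 0 and none to 8715, and 13747 of the named probes matched the current gene table. A gene with several probes (422 genes) entered a list by its brightest probe. Named genes are the 12 rising and 12 falling named probes of smallest p, up to 3 members of each of 29 lists, the 18 genes of the earlier analysis, and up to 5 per test of a difference between responses. The members and lists were chosen with earlier results of these data known. Where no array of a group was above background, the fold is a bound, with none given where it is under 1. The bound sets the bright group's mean against, per array of the dim group, the higher of the probe's own level and the lowest level of a detected probe. Single values per array were compared with exact permutation tests over 2002 splits. The fit was tested on simulated data with known changes. It recovered 34.3% of 67 probes changed 1.5-fold, 74.6% of 67 changed 2-fold and 100% of 66 changed 4-fold. The simulated noise was independent between arrays. The adjusted threshold loosens as more probes change, and the real comparison called 2, so these shares may be too high for it. Small changes can be missed. Among the unchanged probes of the simulated fit there were 15 false calls. The alternatives tried were background correction, normalization, the authors' values, the detection filter, the chip term, the arrays in the fit, the replicate number, 2 covariates and leaving out each array. The number of arrays limits the precision.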

Additional observations from a re-analysis of the deposited data

Results flagged for a closer look

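In 74 groups of array values, over 35 genes and 2 measures per array, 4 held an array farther from its neighbours than expected of a group of that size (Dixon's test at 95%), and chance gives about 1 in 20. Tmem252 was low in adjuvant animal 74, at 5.37 against 6.19 in the next lowest rat, and the same rat had Lcn2 levels near the saline rats in both tissues. Mgp was low in adjuvant animal 80, at 8.89 against 9.42. Ccn2 was low in adjuvant animal 83, at 10.07 against 10.81. Tfpi was low in saline animal 77, at 6.78 against 7.94, and Vwf was lowest in the same rat.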

How the results depend on the processing

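The count of 2 called probes, S100a8 and Lcn2, became 4 with only the groups of the comparison in the fit (Slc38a5 and Tmem252 added) and 1 with the replicate block, a different gene, Ddx56. Same-numbered arrays did not deviate together (correlations of −0.14 to 0.17), so the numbers do not pair the rats. Under that block S100a8 differed by 1.52 (adjusted p = 0.728), Lcn2 by 1.83 (adjusted p = 0.614), Sik1 by −0.31 and Sult1a1 by −0.083, the last 2 opposite to the sign reported. The cause was not tested. Leaving out each array in turn gave 1 to 5 called probes, 1 without adjuvant replicate 6 and 5 without saline replicate 1 (animal 71). Both genes were called under the other 10 alternatives, with 2 or 3 probes in all. With no background correction their differences were 1.03 and 0.94, and with the authors' deposited values 1.03 and 0.94. The day 16 against day 39 difference gained 2 probes with only the groups of the comparison in the fit, and the 3 other differences between responses had 0 under each alternative tried. The hemoglobin difference was 0.44 to 0.64 without each array in turn, and its exact permutation p rose to 0.0741, 0.0573 and 0.0825 without saline replicates 2, 3 and 5, with differences of 0.50, 0.54 and 0.47. The hemoglobin covariate, the tissue difference and the correlations were added after seeing the data.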
